A study of Drosophila melanogaster with 3 samples.

Results

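Of the 10220 peak intervals in the conservative list of Row binding in whole Drosophila melanogaster embryos, 250 carried several summits, 237 of them 2 summits and 13 of them 3. The members were chosen by the peak calls themselves: an interval belonged to the set when it stood on more than 1 line of that list, each line giving a different summit. Their 513 summits made up part of the 10483 summits listed, and the 9970 intervals listed once served for comparison. Summit numbers, spacing, widths and signal values all come from the calls that chose the members, so they are given as description, without tests.

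The study was a chromatin immunoprecipitation followed by sequencing (ChIP-seq) on a single group of 3 biological replicates, with no second condition. The flies were transgenic for a row-eGFP fusion, an insertion that targets row in the strain row-GFP, and the tagged protein was recovered through an antibody against GFP. Embryos were 0 to 24 h old, so all embryonic stages and tissues were mixed, and the chromatin was sonicated to a size range of 200 to 800 bp. The labels name a separate biosample for each replicate of this 1 strain, and the control that they name as possible was not analysed here.

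Row, named as a relative of WOC, has zinc fingers and is known to act together with WOC and with HP1c, a heterochromatin protein 1 relative of euchromatin. These proteins are known at the starts of many active genes. A summit is the base at which a peak caller places the top of the enrichment. Where a protein sits at neighbouring places, as on both sides of a pair of gene starts, a wide interval may hold more than one summit. Whether such summits are separate sites or shoulders of 1 peak is not a matter that peak lists alone settle.

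The stretch of genome between neighbouring summits is short enough to be read whole. Shown here are all named members with several summits in at least 2 of the 3 replicate lists whose 2 strongest summits fit in a stretch of at most 300 bases with no annotated exon, leaving out 1 chromosome arm. That rule was set after the values were seen. Each sequence is the plus strand of dm6 from the RefSeq FASTA, 5′ to 3′, and begins and ends 40 bases outside the outer of the 2 summits. The 11 capitals at each place are centred on a summit, and in all 5 sequences the stronger summit is the one on the left. CG9663 lies at chr2L:3302147-3302429 inside an intron of that gene, fok at chr2L:20085204-20085488 inside an intron of neb, and spi at chr2L:19575738-19576025 upstream of 1 spi start and inside the longer span of the spi gene. The stretch between the starts of CG13698 and mRpS26 lies at chr3L:18106272-18106555 and that upstream of RpS5a at chrX:17148358-17148647, both outside gene bodies.
CG9663: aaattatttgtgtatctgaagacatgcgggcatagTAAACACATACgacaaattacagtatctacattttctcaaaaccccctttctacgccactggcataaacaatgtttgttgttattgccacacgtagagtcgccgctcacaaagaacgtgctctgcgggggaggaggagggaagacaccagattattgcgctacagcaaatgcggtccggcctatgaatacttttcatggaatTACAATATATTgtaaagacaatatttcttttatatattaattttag
fok: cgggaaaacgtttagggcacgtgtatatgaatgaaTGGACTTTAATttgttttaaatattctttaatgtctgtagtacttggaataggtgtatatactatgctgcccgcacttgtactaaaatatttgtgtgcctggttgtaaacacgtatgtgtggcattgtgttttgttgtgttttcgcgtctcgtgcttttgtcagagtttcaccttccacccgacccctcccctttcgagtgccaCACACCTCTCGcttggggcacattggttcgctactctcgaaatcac
spi: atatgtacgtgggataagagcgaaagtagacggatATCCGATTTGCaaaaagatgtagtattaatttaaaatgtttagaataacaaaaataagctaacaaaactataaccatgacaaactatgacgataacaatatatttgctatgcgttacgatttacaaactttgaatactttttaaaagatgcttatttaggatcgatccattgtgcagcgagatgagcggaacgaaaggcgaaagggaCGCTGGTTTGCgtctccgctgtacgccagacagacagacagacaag
CG13698/mRpS26: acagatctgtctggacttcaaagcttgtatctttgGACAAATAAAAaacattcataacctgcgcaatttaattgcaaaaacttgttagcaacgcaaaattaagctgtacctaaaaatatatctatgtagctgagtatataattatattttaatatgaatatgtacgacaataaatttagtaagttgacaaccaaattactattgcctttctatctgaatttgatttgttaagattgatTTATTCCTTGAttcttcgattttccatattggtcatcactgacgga
RpS5a: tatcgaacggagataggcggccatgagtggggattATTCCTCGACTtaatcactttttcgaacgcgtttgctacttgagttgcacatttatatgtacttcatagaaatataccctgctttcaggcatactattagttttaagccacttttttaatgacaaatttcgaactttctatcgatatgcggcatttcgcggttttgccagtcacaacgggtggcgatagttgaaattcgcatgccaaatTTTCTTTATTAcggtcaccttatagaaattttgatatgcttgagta
The 2 capital blocks stand 202 bp apart at CG9663, 204 bp at fok, 207 bp at spi, 203 bp at CG13698 and mRpS26 and 209 bp at RpS5a, and G and C make up 29.2% to 43.5% of the letters. The RpS5a stretch holds the palindrome TATCGATA, the DNA replication-related element bound by DREF, at its bases 174 to 181, between the summits. It also holds the shorter CGATA of the insulator protein BEAF-32 at bases 219 to 223 and, on the minus strand, at bases 1 to 5, beside the 2 copies within the palindrome, and TATAAA on the minus strand at bases 87 to 92. The spi stretch holds CGATA once, at bases 125 to 129, and the CG9663 stretch holds TATAAA once on the minus strand, at bases 266 to 271. The fok and mRpS26 stretches hold none of the 9 motifs searched.

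Neighbouring summits of 1 interval were never closer than 199 bp. The smallest gap within an interval had a median of 205 bp, and in 166 of the 250 members, 66.4%, it was 210 bp or less. The outermost summits spanned a median of 205 bp and at most 787 bp. The signal value, the enrichment that the authors' peak caller gave to each summit, had a median of 960.6 at the strongest summit of a member and of 250.1 at its second. The second summit reached a median of 26.5% of the strongest one, with a range of 0.198% to 99%. In 69 members it was at least 50% as strong, and in 59 it was under 10% as strong. Weak second summits thus made up close to as many members as strong ones, with 122 in between.

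**Figure D1:**
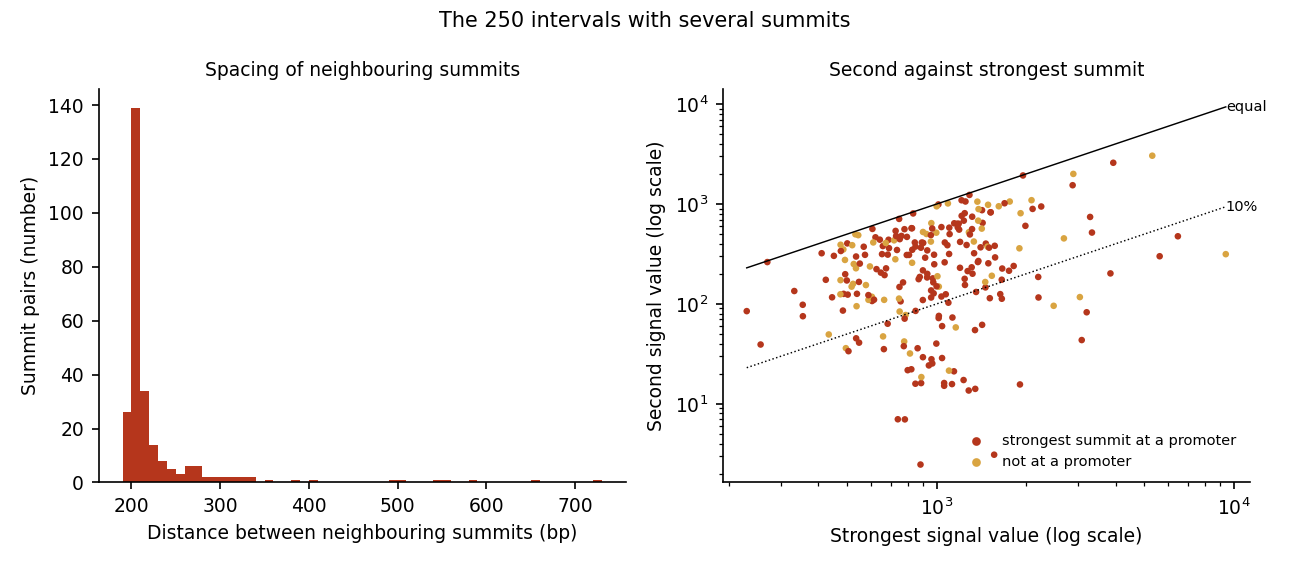
The left panel counts neighbouring summit pairs of the 250 members by their distance (bp, bins of 10 bp), and the right panel plots each member's second signal value against its strongest one, both on log scales, with lines at equality and at 10% and colours for members at a promoter and elsewhere. The distances pile up just above 199 bp, and the second signal values scatter from near equality to under 10% of the strongest.

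Members were wide and strong next to one-summit intervals. Their median width was 560 bp (range 336 to 1345 bp), against 434 bp (109 to 1087 bp) for one-summit intervals, and the strongest signal value had a median of 960.6 (230 to 9398), against 274 (2.13 to 9842). Of the members 247 lay at or above the median signal value of the list, against 4863 of the 9970 one-summit intervals. The one-summit group piles up at a single width: 4317 of its intervals, 43.3%, were exactly 436 bp wide. Within 10 bp of that width the median signal value was 155 and only 30.9% of strongest summits were at a promoter. Of the members 191, 76.4%, were more than 10 bp wider than this commonest width, against 6.07% of one-summit intervals. The replicate lists had the same shape, with 424, 380 and 380 bp as the commonest one-summit widths of replicates 1, 2 and 3.

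**Figure D2:**
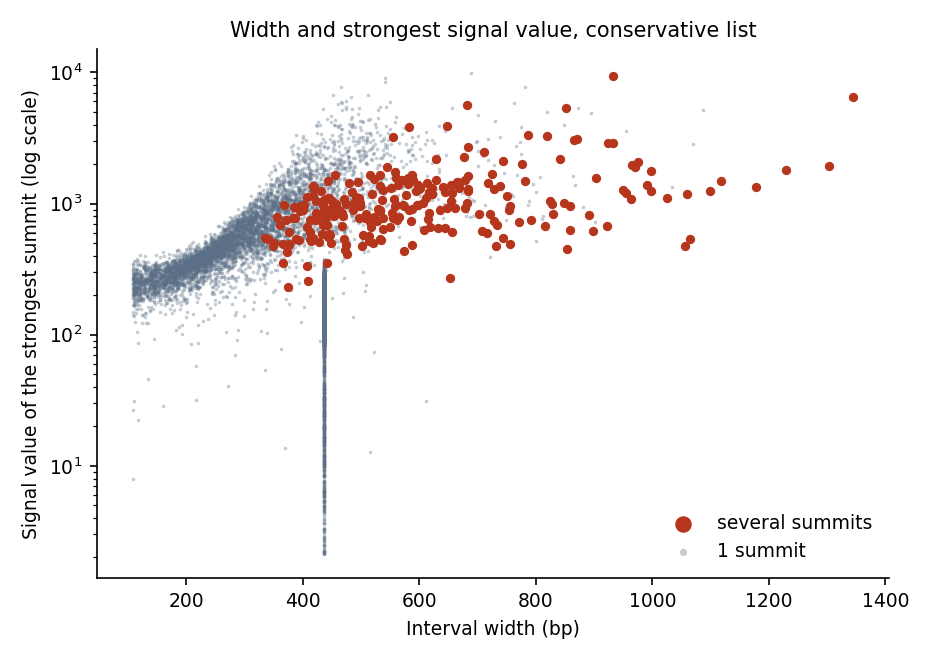
Each point is an interval of the conservative list, with its width (bp) and the signal value of its strongest summit (log scale), for the 250 intervals with several summits and the 9970 with 1. The column of one-summit points at 436 bp is the commonest width, and the members lie to the right of most one-summit points, with 247 of them above the median signal value.

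The threshold of the conservative list decided no membership on its outer side. Among members, the lowest −log10 of the irreproducible discovery rate (IDR, a measure of how poorly a peak repeats between replicates) was 2.45. It belonged to the second summit of the brk interval, with a signal value of 391. That interval has 3 summits, so it would remain a member without this one. Next came Msh6 at 2.66 and barr at 2.82, with 2 summits each. Of the intervals listed once, 0 appeared on several lines of the matching ranked list, so no interval stood just outside. Summits close to others were not particular to members: 1316 one-summit intervals had another summit within 300 bp, in a neighbouring or overlapping interval, the closest at 199 bp. In the whole list 664 intervals overlapped the one before. Such one-summit intervals stay in the one-summit group in every comparison here, so that group is not made of lone summits only. Comparisons without them were not made.

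The strongest summit was nearly always the one at the lower coordinate. This held in 232 of the 250 members, 92.8%, and the higher coordinate was the stronger one in 18. It held in 251 of 257 several-summit intervals of replicate 1, in 77 of 77 of replicate 2 and in 97 of 99 of replicate 3. In the 13 members with 3 summits the strongest was the lowest in coordinate in 11 and the highest in 2, and in 8 the signal values fell step by step along the coordinate. Chromosome coordinates run in 1 direction for genes of both strands, so this order is not an order along genes. Second summits also lay nearer the edge of the interval, a median of 124.5 bp from it, against 212.5 bp for strongest summits. Within 50 bp of an edge lay 67 second summits and 0 strongest summits, and 2 second summits fell just outside their interval. The sources used here do not say how the caller orders and spaces summits, and its part in these values was not tested.

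The strongest member lay in an intron of its nearest gene, Adf1, which encodes a transcription factor of early embryos, at chr2R:6662759-6663690. Its signal values were 9398 and 315, and it ranked 2 of all 10220 intervals. Replicate 1 split it into summits of 2099 and 317 within 1 interval, while the intervals of replicates 2 and 3 had 1 summit each, at 3666 and 3568. Summits that a replicate lists as separate intervals are not counted as a split, here or below. Next came ph-p, polyhomeotic proximal, a subunit of Polycomb repressive complex 1, at chrX:2136377-2137721, with 3 summits of 6485, 476 and 15.9. It was the widest member, 1345 bp, and its outermost summits lay 787 bp apart. The strongest lay 469 bp upstream of its nearest ph-p start and the second 85 bp downstream of its own, which is another start of the same gene. Its tandem copy ph-d had a member of its own, with 1419 and 568 at 786 bp upstream of the nearest ph-d start. The ph copies are alike in sequence, and whether reads were shared between them was not tested, so both values are uncertain.

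At the divergent starts of CG5611 and Mtl the summits of 5631 and 300.2 stood 199 bp apart, the closest spacing of all, 126 bp upstream of CG5611 and 27 bp upstream of Mtl. In an intron of CG9663, at chr2L:3301847-3302697, both summits were high, 5318 and 3049.5, and every replicate listed both. The replicate pairs there were 1738 and 911, 1834 and 1196, and 1568 and 809 in replicates 1, 2 and 3, so the second summit was over 50% of the first in each. Among other members with summits 199 bp apart were mthl5, a G protein-coupled receptor, with 1493 and 255, and wrd, a regulatory subunit of protein phosphatase 2A, with 1460.4 and 146. The row gene itself followed in strength, at chr2R:15213474-15214121, with 3931 at 92 bp upstream of the start and 2591 at 292 bp upstream. Replicate 1 had both row summits in 1 interval, at 1194 and 769, and the intervals of replicates 2 and 3 had 1 each, at 1342 and 1382. The flies carry a row transgene, and reads from its copy of row and from the other copies cannot be told apart here.

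The rest of the 10 strongest members had 1 dominant summit. CG3552 had 3846 and 202, tank 3199 and 82.5, and CG5953 3079 and 43.5, so that the weaker summit was under 10% as strong at each. CG1888, with 3333 and 518, and fok, with 3285 and 743, had more even pairs, and fok was split in every replicate. The replicate pairs of fok were 1231.5 and 222, 1143 and 181, and 897 and 259, in the order of replicates 1, 2 and 3. The strongest members beyond Adf1 and CG9663 with no summit at a promoter were CHES-1-like, a forkhead transcription factor, with 3034.5 and 117 in its own intron, CG4004 with 2885 and 2004 in an exon of a long noncoding RNA, and an interval in an intron of simj with 2682 and 453. Neither the CHES-1-like nor the CG4004 interval was split in any replicate.

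The 13 members with 3 summits had a median width of 971 bp and a median span of 548 bp. Beside ph-p they included shn and chn, zinc-finger transcription factor genes, Sqor, a mitochondrial sulfide oxidase, Tlk, a chromatin-linked kinase, cnn, a centrosome protein, Sumo, the small ubiquitin-like modifier, and nrv1, a subunit of the sodium pump. The nrv1 summits were close to equal, at 1092, 1014 and 939, and its strongest was 1 of only 2 at the highest coordinate. The chn summits had 1763, 1059.8 and 613, those of Sumo 1187, 635 and 243, and those of cnn 1262, 389 and 67. Sqor had 1380.3, 682 and 380.2, with the strongest 537 bp upstream of the start and the second 44 bp downstream. CG10527 had 1569, 382 and 79.4 and CG43658 had 823, 574 and 251, both in order along the coordinate. At brk, which encodes a repressor of genes of Dpp signalling, the values were 475, 391 and 42.1, all upstream of the start and the strongest inside an intron of the neighbour CG1677. Of these 13 intervals 10 were split into several summits in at least 1 replicate list, those of cnn, Sumo and CG2182 in none.

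**Figure D3:**
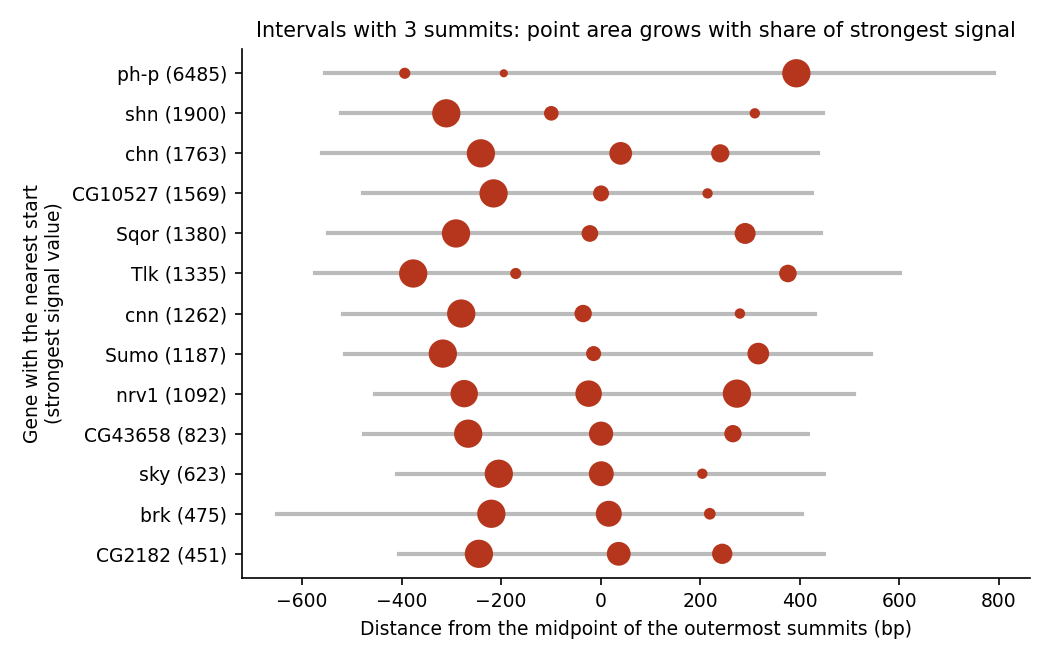
Each line is 1 of the 13 intervals with 3 summits, ordered by strongest signal value from top to bottom, drawn to scale by distance (bp) from the midpoint of its outermost summits, and the area of a point grows with its share of the interval's strongest signal value. The largest point is at the low end in 11 of 13 and at the high end for ph-p and nrv1.

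Most members sat at gene starts. The strongest summit lay within 500 bp of the transcription start site (TSS) of a protein-coding gene, here called a promoter, in 186 of 250 members, 74.4% (95% Wilson interval 68.6% to 79.4%), against 4163 of 9970 one-summit intervals, 41.8% (40.8% to 42.7%). Over all intervals of the list the share was 42.6%. These confidence intervals cover counting error only. In the replicates' own lists the several-summit and one-summit shares were 71.2% and 46.6% in replicate 1, 75.3% and 42.7% in replicate 2, and 83.8% and 49.7% in replicate 3. The difference averaged 30.5 ± 5.13 percentage points (SD, n = 3), higher in 3 of 3 replicates. An exact two-sided sign-flip permutation test over the 3 replicates gave p = 0.25, the smallest value that this design allows, and an adjusted p of 0.458 over the 22 differences tested (Benjamini-Hochberg), so no difference here can pass 0.05. The replicate lists are not independent of the members, because the conservative list was made from all 3.

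The promoter difference turned round when intervals were limited to 500 to 1000 bp, which leaves out 89 narrower and 10 wider members. In that range the promoter share was 72.8% of 151 members, against 78.1% of 311 one-summit intervals. The replicates gave 69.5% and 76.8%, 67.6% and 78.0%, and 76.7% and 84.6%, several summits first in each pair, a mean difference of -8.54 ± 1.63 points (exact sign-flip p = 0.25), lower in 3 of 3. Here the one-summit intervals were the stronger ones, with a median signal value of 1590.2, against 1087 for members. Among intervals more than 10 bp wider than the commonest one-summit width, a limit added after the data were seen, the shares were 73.3% of 191 members and 78.2% of 605 one-summit intervals, and the mean replicate difference was -5.23 ± 5.02 points. Limited instead to intervals at or above the median signal value of their list, the difference stayed at 20.8 ± 2.05 points, with 74.1% of 247 members against 52.6% of 4863 one-summit intervals in the conservative list. The direction differed from 1 width class to the next, in classes set after the data were seen and given without a test. In the conservative list 69.6% of 23 members up to 400 bp wide were at a promoter, against 46.0% of one-summit intervals. Between 400 and 500 bp, the class that holds the commonest one-summit width, 83.3% of 66 members stood against 35.6%, with median signal values of 883 and 163. Between 500 and 600 bp 83.1% of 59 members stood against 78.7%, and between 600 and 1000 bp 66.3% of 92 members against 75.8%. Replicate 1 had the same signs in these 4 classes. In replicates 2 and 3 the members' share was higher up to 400 bp and from 400 to 500 bp and lower from 500 to 600 bp, and from 600 to 1000 bp it was higher in replicate 2, 65% of 20 against 57.9% of 19, and lower in replicate 3. Promoter share thus varied with width among members as well, and the parts of width and signal value in the difference were not tested further.

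**Figure D4:**
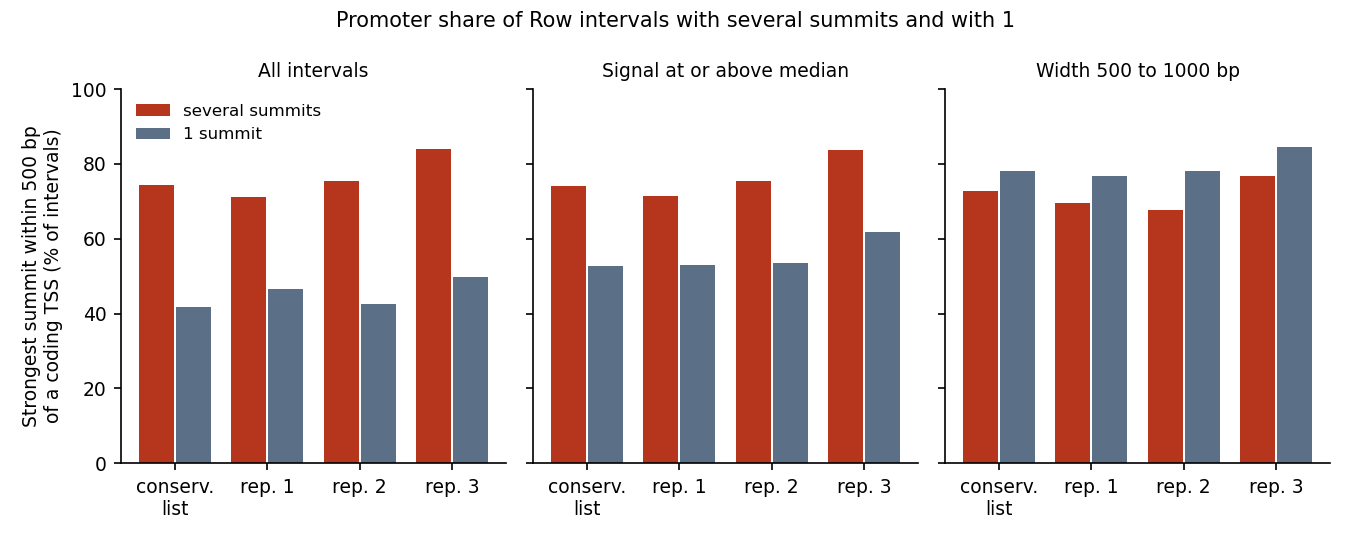
Bars show the share of intervals (%) whose strongest summit lies within 500 bp of a protein-coding TSS, with several summits on the left of each pair and 1 summit on the right, in the conservative list and in each replicate's own list, for all intervals, for those at or above the median signal value and for those of 500 to 1000 bp. The several-summit bar is the higher one in the first 2 panels and the lower one in the third, 72.8% against 78.1% in the conservative list.

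At promoters, members often lay near the starts of 2 genes on opposite strands that point away from each other, at most 1000 bp apart. One of the 2 starts lay within 500 bp of the strongest summit, which did not have to lie between them. Such a divergent pair was present at 96 of the 186 promoter members, 51.6%, against 1727 of 4163 one-summit promoter intervals, 41.5%, and 41.9% of both together. In the replicates the shares were 47.5% and 39.1%, 62.1% and 43.0%, and 66.3% and 44.3%, several summits first, and the mean difference was 16.5 ± 7.14 points, higher in 3 of 3 replicates (exact sign-flip p = 0.25, adjusted p = 0.458). Among intervals of 500 to 1000 bp it was 4.85 ± 7.66 points, lower for several summits in replicate 1 and higher in replicates 2 and 3, and the conservative list gave 54.5% of 110 members against 58.0% of 243 one-summit intervals. The distance between the 2 starts had a median of 344.5 bp at members and 322 bp at one-summit intervals, but 315 against 322 bp, 307.5 against 333.5 bp and 331 against 331 bp in replicates 1, 2 and 3.

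In 172 members the strongest and second summits were both at a promoter, and in 67 of these the nearest starts belonged to different genes, 67 of them with a divergent pair. Examples are CG5611 and Mtl, ash1 and Taf6, RpL28 and eIF1, mRpL39 and Prosbeta2, and Cdk1 and mRpS7. The strongest summit was then nearest the gene on the minus strand in 63 of 67 pairs, 94.0%. In a divergent pair the minus-strand gene starts at the lower coordinate, so this count restates the order along the coordinate described above.

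The same order showed in the strand of the nearest gene. The gene nearest the strongest summit was on the minus strand at 136 of 186 promoter members, 73.1%, against 2087 of 4163 one-summit intervals, 50.1%. The replicate lists gave 68.9%, 77.6% and 80.7% for several summits, against 49.5%, 51.0% and 50.1% for 1 summit. This count was made after the data were seen and was not tested. Its 136 members include 63 from the pairs of 2 genes above. Where both summits were nearest the same gene, that gene was on the minus strand in 61 of 105 members. In 105 members both summits were nearest a start of the same gene, in 83 of them the very same start and in 22 different starts of 1 gene. With the same start, both summits lay upstream in 64, on opposite sides in 17 and both downstream in 2. Where both lay upstream of the same start, the strongest was the one nearer to it in 44 of 44 members at minus-strand genes and in 4 of 20 at plus-strand genes. Over all 105, the median positions at the 61 minus-strand genes relative to each summit's nearest start, negative being upstream, were -132 bp for the strongest and -323 bp for the second summit, and at the 44 plus-strand genes they were -175.5 bp and -27.5 bp. The order of strong and weak summits along a gene thus depended on the gene's strand, and a pooled position relative to the start mixes 2 opposite patterns.

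**Figure D5:**
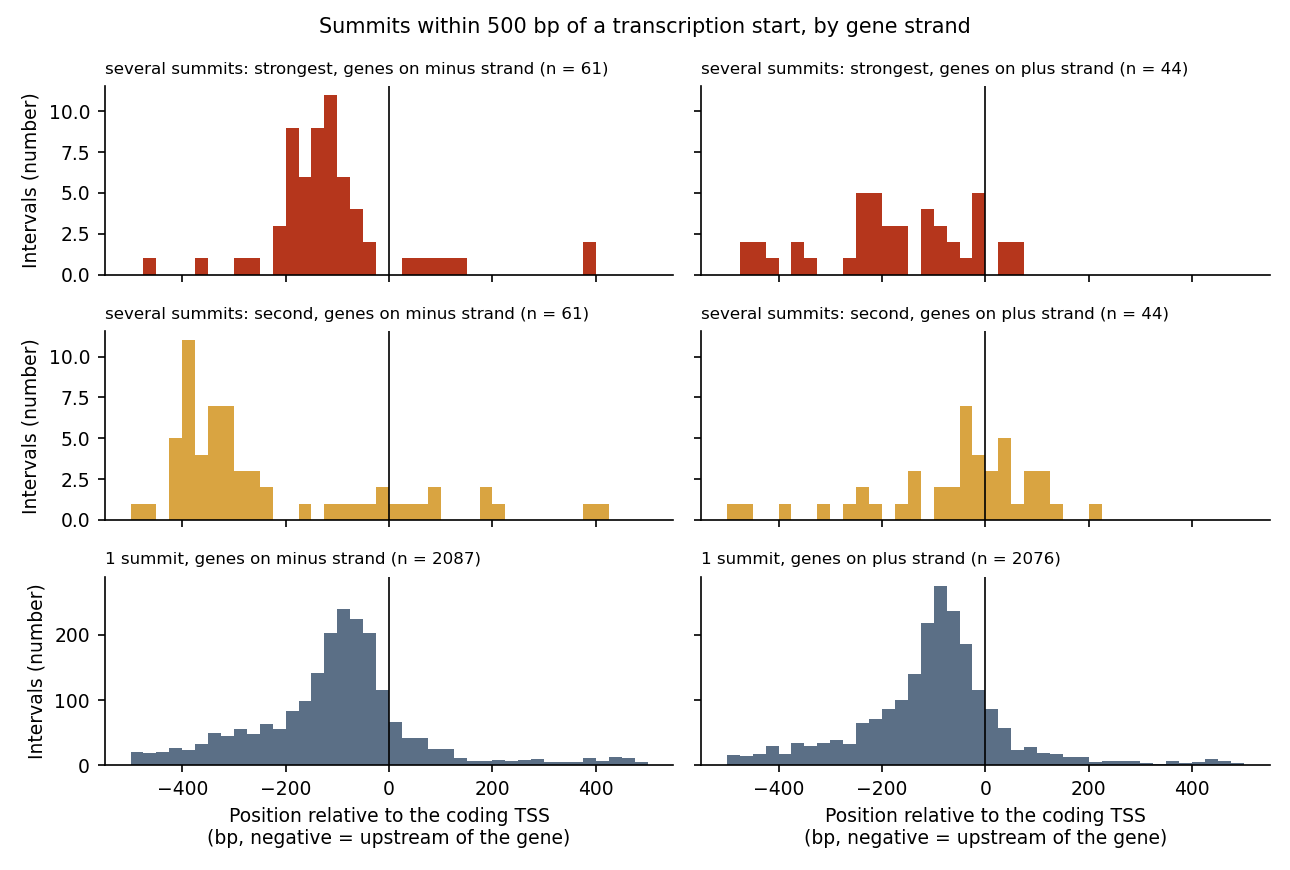
Histograms give the position (bp, negative is upstream) of summits relative to the nearest protein-coding TSS, in bins of 25 bp, for members with both summits nearest the same gene and for one-summit intervals, with minus-strand genes on the left and plus-strand genes on the right. At minus-strand genes the second summits lie mostly upstream of the strongest ones, and at plus-strand genes mostly nearer the start, while the one-summit positions look alike on both strands.

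Whichever strand was nearest, strongest summits at promoters lay mostly upstream of the start, in 165 of 186 members, 88.7%, against 3524 of 4163 one-summit intervals, 84.7%. Their median position was -119.5 bp in members and -93 bp in one-summit intervals. At minus-strand genes it was -117.5 against -93 bp, and at plus-strand genes -162 against -91 bp. In replicates 1, 2 and 3 the medians were -136, -140.5 and -115 bp for several summits, against -78, -106 and -95 bp for 1 summit. A start lay between the outermost summits in 57 of the 199 members with any promoter summit.

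The remaining members lay in introns and between genes. The strongest summit was in an intron in 38 members, 15.2%, against 3718 one-summit intervals, 37.3%, and 36.8% of all intervals. It was intergenic in 20 members and in an exon away from any promoter in 6. The replicate intron shares were 18.3% and 34.1%, 16.9% and 36.4%, and 11.1% and 32.2%, several summits first, a mean difference of -18.8 ± 2.71 points, lower in 3 of 3 (exact sign-flip p = 0.25, adjusted p = 0.458). Among intervals of 500 to 1000 bp the mean difference was 1.65 ± 0.719 points and so of the other sign, while the conservative list gave 14.6% against 16.4%. The 51 members with no summit at a promoter were a median of 2333 bp from the nearest start, and 14 of them were over 5000 bp away.

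Examples of intronic members, chosen after their values were seen, include genes of transcription factors and chromatin proteins. The gene shn held 2 members, of 1899.7 and of 1284 at the strongest summit, and Smr, which encodes a nuclear corepressor, held 1 with 1917 and 809 set 724 bp apart. The gene prage had 2087 and 1093 in its own intron and was split in every replicate. In an intron of N, the Notch receptor gene, an interval had 1619 and 950.4, and the nearest start, of CG18508, was 10579 bp away. At Tlk the 3 summits had 1335, 421 and 97.7 and lay in an intron, the strongest 3528 bp upstream of the nearest start.

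In each list the promoter share was lowest where the second summit was at least 50% as strong as the strongest. Of the 69 members whose second summit was at least 50% as strong, 46 had the strongest at a promoter, 66.7%, against 75.4% of the 122 in between and 81.4% of the 59 with a second summit under 10%. Replicate 1 gave 55.6% of 36, 70.6% of 143 and 79.5% of 78 intervals in the same order. Replicate 2 gave 50% of 16, 78.6% of 42 and 89.5% of 19. In replicate 3 the shares were 72.7% of 22, 87.1% of 62 and 86.7% of 15, so the last 2 were not in that order. Several of these groups are small. Width moved with how even the summits were, with medians of 678, 534 and 453 bp in the conservative list. These classes use the signal values of the calls themselves and are a description.

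By gene list, members were few in each, between 0 and 4 genes. Of all 13968 protein-coding genes, 298 had a promoter summit in a member, 2.13%, and 4791 in one-summit intervals only. For the 73 mitochondrial ribosomal protein genes the count was 4, mRpL34, mRpL39, mRpS26 and mRpS7, beside 44 with a one-summit interval. For the 92 cytosolic ribosomal protein genes it was also 4, RpS23, RpL23, RpL28 and RpS5a, beside 73. The 29 Polycomb and trithorax group genes counted 3, ph-p, the histone methyltransferase gene ash1 and pho, whose product recruits Polycomb proteins to DNA, beside 16. Among 16 genes of the Row complex and HP1 proteins there were row and HP5, beside 9, and among 19 insulator and core promoter factor genes pita and pho, beside 13. Of 33 signalling genes spi, an epidermal growth factor receptor ligand, and brk counted, and of 29 cell cycle genes Cdk1. None of 31 segmentation and Hox genes, 27 axon guidance genes, 20 muscle genes, 119 odorant and gustatory receptor genes or 70 cuticle protein genes did. In the order of these lists 4, 12, 4, 1 and 1 genes had a one-summit interval, so most of the genes had no Row summit at a promoter at all.

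At these listed genes the strongest signal value ran from 475 at brk to 6485 at ph-p, though at brk only the weakest of the 3 summits, with 42.1, lay at the promoter. At spi the summits of 1337 and 322 lay 191 and 398 bp upstream of the start, and every replicate listed both, with second values of 120.2, 45 and 143. At RpL28 and eIF1 they had 780 and 560.1, close to even, and no replicate list had both in 1 interval. RpS23 had 971 and 180.2 at 48 and 247 bp upstream, pita 540 and 126 on opposite sides of its start, and pho, the 1 member on chromosome 4, 536 and 298. The Evi5 and HP5 pair, 776 and 37.7, and the Cdk1 and mRpS7 pair, 574 and 310.1, were not split in any replicate.

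Over all intervals, base composition and motif shares differed little. The window reaching 100 bp to each side of the strongest summit held 34.1% G and C on average in members, against 35.3% in one-summit intervals. In the replicates the means were 34.1% and 36.4%, 32.6% and 34.3%, and 34.2% and 34.9%, several summits first, a difference of -1.57 ± 0.771 points, lower in 3 of 3 (exact sign-flip p = 0.25, adjusted p = 0.458). Among intervals of 500 to 1000 bp the difference was 1.64 ± 1.92 points, of the other sign.

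Motifs were looked for on both strands in those windows. TATAAA, the TATA box, was in 111 of 250 members, 44.4%, against 37.8% of one-summit intervals, with a mean replicate difference of 6.22 ± 2.95 points, higher in 3 of 3. CGATA of BEAF-32 was in 88, 35.2%, against 30.2%, with 3.86 ± 3.78 points, higher in 3 of 3. AAAAAAAA was in 13.6% against 16.5%, with -4.43 ± 2.23 points, lower in 3 of 3, and CACACACA in 0.8% against 3.21%, with -1.18 ± 0.777 points, lower in 3 of 3. GTCACAC of M1BP was in 4.4% against 4.16% in the conservative list, yet lower in 3 of 3 replicates, with -2.07 ± 2.63 points, and replicate 3 had it in 0 of 99 several-summit intervals. TATCGATA, which contains CGATA on both strands, was in 4.4% against 5.1%, CAGCTG, an E-box, in 8.4% against 7.78%, GAGAGAG of GAGA factor in 3.2% against 2.57% and CAGGTAG of Zelda in 0.4% against 0.762%. The replicates disagreed in sign for these 4. For every motif the exact sign-flip p was 0.25 or more and the adjusted p between 0.458 and 1.

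Promoters hold other motifs than introns, and members are mostly promoters, so the shares were also taken at promoters alone, after the data were seen and with no test. TATAAA was then in 45.2% of 186 members against 37.2% of 4163 one-summit intervals, and in 39.9% against 33.8%, 53.4% against 39.2% and 49.4% against 37.7% in replicates 1, 2 and 3. CGATA was in 40.9% against 44.9%, and in 37.2% against 45.1%, 41.4% against 44.5% and 48.2% against 46.6% in replicates 1, 2 and 3, so its sign differed between lists. TATCGATA was in 5.38% against 11.1%, lower in replicates 1 and 2 and higher in replicate 3, where 14.5% stood against 10.9%. GTCACAC was in 5.38% against 7.95%. In replicates 1, 2 and 3 it was in 7.1% against 9.16%, 3.45% against 6.8% and 0% against 8.34%, so lower in every list. The remaining motifs are not listed here.

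Within members, windows at the strongest summit were set against windows at the midpoint between the strongest and second summits, which lay at least 200 bp apart in 225 members. The window at a midpoint shares bases with those at the summits. CGATA was in 35.1% of strongest, 33.3% of second and 29.3% of midpoint windows, and TATAAA in 43.6%, 36.4% and 43.1%. GAGAGAG was in 2.67%, 3.11% and 4.89%, and over the replicates the share at the strongest summit minus that at the midpoint was -4.22 ± 1.19 points, lower in 3 of 3. CACACACA behaved alike, with 0.444%, 3.56% and 2.22% and a replicate difference of -2.34 ± 0.906 points. Both rest on few windows, out of 216, 70 and 85 intervals in replicates 1, 2 and 3. Strongest and midpoint windows with GAGAGAG numbered 9 and 20, 0 and 2, and 1 and 5 in that order. Those with CACACACA numbered 5 and 12, 1 and 2, and 2 and 4. TATCGATA was more frequent at the strongest summit in 3 of 3 replicates, by 4.71 ± 6.12 points, of which 11.8 points came in replicate 3. For GAGAGAG, CACACACA and TATCGATA the exact sign-flip p was 0.25 (adjusted p = 0.458). For CGATA, higher at the strongest summit in 2 of 3 replicates, it was 0.5 (adjusted p = 0.786), and for TATAAA, also higher in 2 of 3, the exact p was 1 (adjusted p = 1).

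All 250 members overlapped an interval in all 3 replicate lists by at least 1 bp, against 5994 of 9970 one-summit intervals, 60.1%, and 61.1% of all intervals. Members were also stronger and wider than one-summit intervals, and the conservative list was made from these 3 replicates. The shares are a description, and none was taken among intervals of like signal value or width. Being split was less steady than being bound. A several-summit interval of replicate 1 overlapped 118 members, 47.2%, one of replicate 2 overlapped 55, 22%, and one of replicate 3 overlapped 67, 26.8%. The replicate lists themselves held 257, 77 and 99 several-summit intervals. All 3 replicates split 24 members, 2 of the 3 split 38, 1 split 92, and 96 members, 38.4%, were split in no replicate list. Summits that a replicate lists as separate intervals do not count as a split. These counts therefore do not show whether a second summit was absent from a replicate. In the other direction, 150, 25 and 35 one-summit intervals overlapped a several-summit interval of replicates 1, 2 and 3, and 5 did so in all 3.

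A split needs a second summit called in that replicate, and the conservative list was made from all 3 replicates. Signal values of members grouped by their splits are therefore a description. In the conservative list the 24 members split in every replicate were strong and even. Their strongest summit had a median of 1327, against 1041 for the 130 split in 1 or 2 replicates and 738 for the 96 split in none. The second summit reached a median of 52.5% of the strongest, against 21.3% and 27.5%, and 15 of the 24, 62.5%, were at a promoter, against 79.2% and 70.8%. They included CG9663, fok, chn, spi, nrv1 and brk, described above. Others were sds22, a phosphatase regulator, with 2250 and 945, Herp with 1990.2 and 605, trem with 1693 and 1019, the chromatin remodeller gene Chd1 with 1422 and 868, the histone acetyltransferase gene nej with 1406 and 369, the mitochondrial chaperone gene Hsc70-5 with 1214 and 1091 and CrebA, a transcription factor gene of the secretory pathway, with 1038 and 588. These names beyond the rule were chosen after their values were seen.

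In most members the strongest summit lay close to that of each replicate list. The conservative list was made from the same 3 replicates, so these distances are a description and not an independent check. The strongest summit of the overlapping replicate interval lay a median of 12, 16 and 14 bp from the member's strongest summit in replicates 1, 2 and 3, and within 50 bp in 80.4%, 83.2% and 80% of the 250 members. Where the replicate also had several summits, its second summit lay a median of 11, 15 and 12 bp from the member's. The stronger one was on the same side in 114 of 118, 54 of 55 and 66 of 67, a count to be read beside the low-coordinate order found in all lists. The second-summit distances are to be read beside that order and the narrow spacing. The smallest gap was 210 bp or less in 80.2%, 84.4% and 80.8% of the several-summit intervals of replicates 1, 2 and 3.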

How the data were processed

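The authors deposited peak lists on dm6, per the file headers and labels: for each replicate, and in 4 versions for the series, a thresholded list and a ranked list scored by the irreproducible discovery rate (IDR). Per the deposited read-me files, the series lists derive from the alignments of all 3 replicates, and the sources used here name neither the aligner nor the peak caller. The deposited lists hold a score (a scaled IDR), a signal value (the caller's enrichment), the −log10 of the global IDR (ranked lists) and a summit offset. Signal values were compared only within a list. Read depth is unknown. The 32 columns of per-replicate values in the series' ranked lists were not used.

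Lines of the conservative list with the same chromosome, start and end were grouped into 1 interval, and start plus offset gave each summit. Its lines were found in a ranked list at IDR 0.01. Coordinates are 1-based. Only the 7 main chromosome arms were used, which left out 3 summits of replicate 2 and 27 of replicate 3. Genes came from the Ensembl annotation of this assembly, with 13968 protein-coding genes and 19630 start sites, and sequence from the RefSeq genome of the same assembly. The strongest summit, by signal value, stood for each interval. Differences between several-summit and one-summit intervals were taken within each replicate's own list and tested by an exact two-sided sign-flip permutation test over the 3 lists, with Benjamini-Hochberg adjustment over 22 differences. These p-values come from 3 differences, 1 per replicate list. Where all 3 share a sign, the p is 0.25 whatever their spread. The code was checked on simulated intervals.

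The members, the 12 gene lists, the motifs and the tests were chosen with earlier results of these data known. The text names the 10 members with most summits, the 10 strongest, the 5 strongest with no promoter summit, up to 4 genes of each list and the 3 closest and 3 farthest summit sets; members named beyond this are said to be so or are examples of a count. Python 3.11.15, numpy 2.4.6, pandas 2.3.3 and scipy 1.17.1 were used.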

Additional observations from a re-analysis of the deposited data

Results flagged for a closer look

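The ranked list that matches the conservative list held 12 further several-summit intervals at the same IDR of 0.01 that the conservative list lacks, a signal in data outside the comparisons made here. All 12 overlapped a peak at that IDR in the ranked list of every replicate, and 0 of them overlapped any interval of the replicates' thresholded lists or of the 4 thresholded series lists. The strongest was in an intron of tara at chr3R:16235476-16237313, with 4 summits, more than any member, and a signal value of 4432. The others had 424 to 1156 and included a second tara interval and promoters of Rel, tacc, wdb and chic. The files do not say why the thresholded lists lack them, and no cause was tested.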

How the results depend on the processing

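The member count was 248 to 262 in the other series lists and in the ranked list at other IDR thresholds, against 250. Over the alternatives to the promoter, divergent, intron and GC differences, width was the choice that changed a direction. Limited to 500 to 1000 bp, the promoter difference was -8.54 points, the intron difference 1.65 points and the GC difference 1.64 points; with a median signal limit as well, added after the data were seen, they were -8.37, 1.35 and 1.72 points; above the commonest one-summit width, also added, they were -5.23, 2.78 and 0.584 points. The cause was not tested. The mean divergent difference kept its sign in 10 alternatives but was 4.85, 4.24 and 2.12 ± 8.32 points under these width limits, against 16.5, with replicate 1 of the other sign in each. In the conservative list it was -3.48, -2.81 and -2.16 points there. Without each replicate in turn the promoter difference was 28.6 to 33.4 points, the divergent 13.7 to 20.5, the intron -20.3 to -17.7 and the GC -1.99 to -1.23. With an overlap of 50% of both intervals, 67.2% of members, not 100%, overlapped all 3 replicates. The share of one-summit intervals was then 43.4%, not 60.1%.

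Motif differences over all intervals were small. Of the several-minus-one alternatives 63 kept the sign and 18 reversed it. Of the strongest-minus-midpoint ones 25 kept it, 4 reversed it and 7 gave 0. Given here are only the reversed ones and the ranges over replicates that hold them. At 500 to 1000 bp the reversed differences were 1.88 points for the E-box, 0.388 for GAGA factor, -0.253 for Zelda, 0.0903 for the CA repeat and -1.27 for the TATA box. At or above the median signal value Zelda gave -0.0762. In windows reaching 50 bp to each side DRE gave -1.51, the E-box 0.615 and Zelda -0.381. Counting any summit, which gives members more windows by construction, M1BP gave 1.7, the E-box 9.71, GAGA factor 5.56, the CA repeat 4.06 and the A run 8.65. Without each replicate in turn DRE gave -2.09 to 2.76, the E-box -1.66 to 0.364 and Zelda -0.254 to 0.442. For strongest minus midpoint, a spacing of at least 300 bp, with only 13, 1 and 3 intervals in replicates 1, 2 and 3, gave -47.0 for BEAF-32, -10.3 for the E-box and 29.9 for the TATA box, and the TATA box gave -4.24 to 1.89 without each replicate in turn.

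Depth is unknown, and with 3 replicates no difference can reach an exact p under 0.25.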

Other observations

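Neighbouring one-summit intervals, whose summits the conservative list gives as separate intervals, had the same order along the coordinate as members. Of 659 neighbouring pairs of one-summit intervals with summits at most 300 bp apart, the one at the lower coordinate was the stronger in 634, 96.2%. Members were spread over the arms, with 48 of 1817 intervals on 2L, 59 of 1795 on 2R, 40 of 2081 on 3L, 52 of 2243 on 3R, 50 of 2196 on X and 1 of 88 on chromosome 4. Of the 100 strongest intervals 8 were members, of the 500 strongest 34 and of the 1000 strongest 92.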
